A study of Arabidopsis thaliana with 15 samples.

Results

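Williamsia sp. Leaf354, a bacterium isolated from leaves, was sprayed on wild-type Arabidopsis thaliana of the accession Col-0 at 4 densities that were 10-fold apart, and the mRNA level of each gene was described by its slope and its curvature over the log10 density. The series holds 15 RNA-seq libraries, of which the 12 from inoculated plants were used, 3 for each density. Each group carries the log10 of its colony-forming units (CFU) per ml of spray in its name, from W5 at 5 to W8 at 8. All plants were 6 weeks old, had been raised aseptically in closed boxes, carried no transgene or mutation named in the labels, and gave their aboveground parts 96 h after spraying. A library pooled 2 plants that came from different boxes, and replicates did not share plants. The 3 mock libraries, from plants sprayed with phosphate-buffered saline, have no place on a log10 axis and were left out. The density is that of the suspension, and the number of bacteria on the leaves at harvest was not used here.

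A fit over density asks which genes follow the number of bacteria applied and how, a question the title of the series raises for plant immunity. Arabidopsis leaves sense microbes through receptor kinases at the cell surface, which start pattern-triggered immunity. That response leads to salicylic acid, the hormone of systemic resistance, and to antimicrobial compounds made from tryptophan, such as camalexin and indole glucosinolates. Leaves also carry a set of genes that rise in the dark or at low sugar, under the kinase SnRK1 and bZIP factors, and that serve the breakdown of amino acids and the restraint of growth. Photosynthesis genes are among the most abundant in leaf mRNA.

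The slope is the log2 change for each 10-fold higher density in a straight line through the 4 densities. The curvature coefficient is 0 on a straight line. It is the log2 change from W7 to W8 minus that from W5 to W6, divided by 4. A positive value means a rise that steepens, a fall that flattens or a trough, and a negative value a rise that flattens, a fall that steepens or a peak. Levels are CPM, counts relative to the library total after scaling by the trimmed mean of M values (TMM), and errors of slopes and curvatures are standard errors (SE) from edgeR. A slope or curvature is called when its p, after Benjamini-Hochberg adjustment across all 19285 genes that were tested, is under 0.05.

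Library totals ran from 17811560 to 21870246 counts over the 15 libraries. The first principal component of the 12 inoculated libraries held 54.2% of the variance and followed density without overlap between groups, from -38.6 to -34.1 in W5, then -26.2 to -18.7 in W6, -9.24 to 19.9 in W7 and finally 44.4 to 70 in W8. The W7 libraries spread most, with replicate 1 lowest and replicate 3 highest, and W8 replicate 2 stood farthest out. Markers of leaf photosynthesis summed to 48800 to 57500 CPM in W5 to W7 and to 39900 to 45000 CPM in W8. The 6 root markers summed to 117 to 202 CPM, nearly all of it PYK10, and 3 or 4 of them were at 0 in each group, while the 7 flower markers summed to 2.33 to 6.06 CPM.

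A slope was called for 6699 genes, 34.7% of those tested. It was positive for 3734 genes, 19.4%, and negative for 2965 genes, 15.4%. Rises were the steeper ones. The median slope of the rising genes was 0.19 and that of the falling genes -0.13, and a slope of at least 1, a doubling per 10-fold density, was found in 266 rising genes against 3 falling genes with a slope of -1 or lower. Over W5 to W7 alone, with 9 libraries, 1040 genes (5.46%) rose and 519 (2.72%) fell, whereas over W6 to W8 the counts were 2919 (15.2%) and 2536 (13.2%).

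The steepest rises among genes whose log2 CPM averaged 1 or more included 3 genes of the salicylic acid list, PR1, DLO1 and WRKY38. PR1 (AT2G14610), a secreted defence protein and the classical marker of salicylic acid, had 0.907, 0.139 and 0.638 CPM in the W5 libraries, 1.19, 0.094 and 5.02 in W6, 0.495, 4.07 and 8.35 in W7, and 85.8, 113 and 29 in W8. All W8 libraries lay above all others, while W5, W6 and W7 overlapped. Its slope was 2.70 ± 0.37 (SE, 12 libraries, edgeR adjusted p = 0.000289), and over W5 to W7 alone it was not called (adjusted p = 0.261). DLO1 (AT4G10500), an oxygenase that breaks down salicylic acid, had a slope of 2.71 ± 0.30 (adjusted p = 4.33e-05), with 8.26 to 21 CPM in W8 and at most 0.252 CPM in W5. WRKY38 (AT5G22570), a transcription factor of basal defence, had a slope of 2.21 ± 0.25 (adjusted p = 3.4e-05) and rose from 0 to 0.323 CPM in W5 to 7.28 to 12.5 CPM in W8. LUP5 (AT1G66960), a triterpene cyclase, had 0.0924 to 0.403 CPM in W5 and 10.9 to 21.6 CPM in W8, with a slope of 2.59 ± 0.27 (adjusted p = 3.33e-05). AT1G26410, an enzyme of the FAD-linked berberine family, rose at every step without overlap between neighbouring groups, with W5 at 0.231 to 0.426 CPM, W6 at 0.827 to 1.29, W7 at 2.23 to 3.25 and W8 at 15.3 to 32.4. Its slope was 2.15 ± 0.14 (adjusted p = 4.52e-07). AT3G28510, an ATPase of the P-loop class, had a slope of 2.87 ± 0.37 (adjusted p = 0.000147), and the membrane protein PCR1 (AT1G14880) one of 2.15 ± 0.31 (adjusted p = 0.000391). AT3G28510 rested on 2 reads over the W5 libraries, so the size of its slope depends on how the fit treats counts near 0.

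In 3 of these 10 steepest rises the slope was over 1.5 times smaller without W8 replicate 2. AOX1D (AT1G32350), a mitochondrial alternative oxidase, had 68.1 CPM in that library against 7.56 and 6.28 in the other W8 libraries and 0.544, 2.7 and 6.67 in W7. Its slope of 2.12 ± 0.40 (adjusted p = 0.00198) was 1.26 ± 0.28 without that library (adjusted p = 0.00706). AT4G11170, an intracellular immune receptor of the TIR class, had 32.9 CPM there against 2.78 and 4.41, and a slope of 2.77 ± 0.46 that became 1.65 ± 0.25 without it. AT1G13520, a DUF1262 protein that rested on 2 reads over the W5 libraries, had 29.4 CPM there against 2.91 and 2.42, and a slope of 2.45 ± 0.51 that became 1.33 ± 0.36. These 3 slopes stayed called with each library left out in turn.

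Falls were shallower. AT2G15020, a protein of unknown function, had 37.8, 28.5 and 33.6 CPM in W5, 22.7, 22.4 and 20.1 in W6, 13.9, 10.3 and 12 in W7, and 4.01, 3.07 and 3.75 in W8. The groups did not overlap at any step, the slope was -0.99 ± 0.09 (adjusted p = 5.37e-06), and the fall steepened, with a curvature of -0.27 ± 0.05 (adjusted p = 0.0069). The zinc finger protein BBX29 (AT5G54470), of the B-box type, fell from 8.18 to 9.47 CPM in W5 to 1.84 to 2.48 in W8 with a slope of -0.69 ± 0.05 (adjusted p = 3.71e-08). AT2G44940, an AP2/ERF transcription factor, fell with a slope of -0.63 ± 0.04 (adjusted p = 4.88e-09) and a curvature of -0.01 ± 0.04 that was not called. Phosphate genes were among the falling ones: SPX1 (AT5G20150), an intracellular phosphate sensor, had a slope of -0.67 ± 0.07 (adjusted p = 2.98e-05), and G3Pp1 (AT3G47420), annotated as a glycerol-3-phosphate transporter, one of -0.54 ± 0.05 (adjusted p = 1.46e-06). MYB34 (AT5G60890), a regulator of indole glucosinolate synthesis, had a slope of -0.54 ± 0.06 (adjusted p = 5.43e-06), and the wall enzyme XTH31 (AT3G44990) one of -0.61 ± 0.07 (adjusted p = 5.16e-05). AT5G20790 had 7.25 to 13.1 CPM in W5, then 1.27 to 2.13 in W6, 1.05 to 3.71 in W7 and finally 0.683 to 1.98 in W8, with W5 above the others and those overlapping. Its slope of -0.87 ± 0.21 (adjusted p = 0.00665) was not called without W5 (adjusted p = 0.695).

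**Figure D1:**
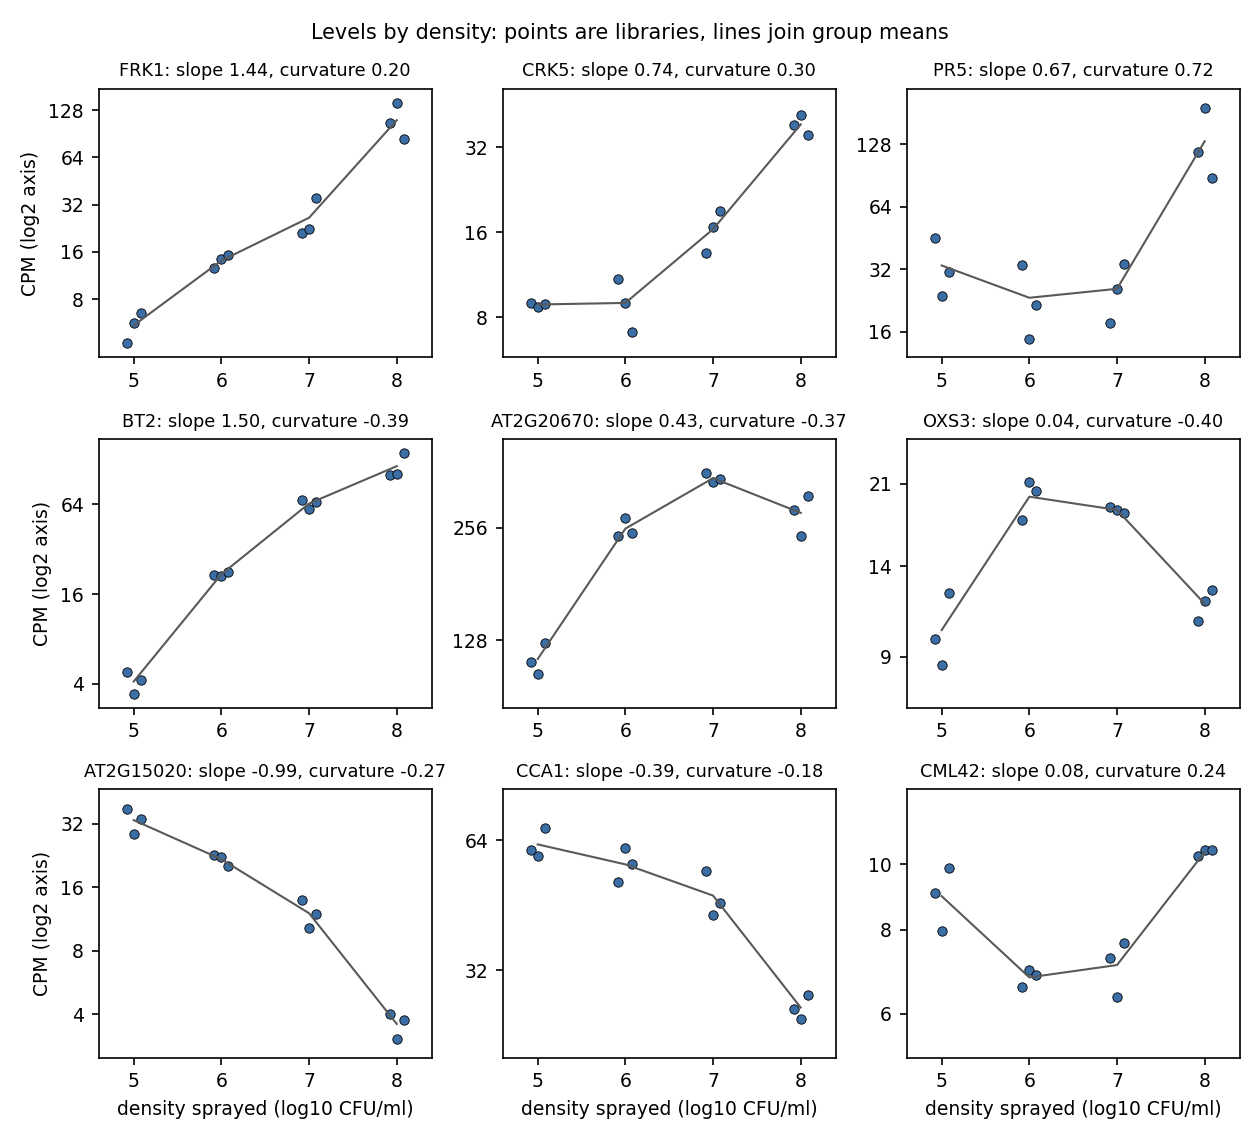
CPM on a log2 axis against the log10 density sprayed for 9 genes. Points are the 3 libraries of each group and lines join the group means. FRK1 rises over the whole range, CRK5 and PR5 rise late, BT2 and AT2G20670 rise early, OXS3 peaks, AT2G15020 and CCA1 fall most in the last step and CML42 has a trough.

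A curvature was called for 473 genes, 2.45% of those tested. It was upward for 312 genes, 1.62%, and downward for 161 genes, 0.835%. Of the upward genes 290 also rose, and their median log2 changes were -0.04 from W5 to W6, 0.31 from W6 to W7 and 0.62 from W7 to W8. In 287 of these 290 the last step was the largest. Of the downward genes 69 also fell, all with the largest change in the last step, and their median changes were 0.00, -0.20 and -0.57. A second downward class of 39 genes rose and flattened, with median changes of 0.61, 0.37 and -0.09, and 36 of them had the largest change in the first step. Curvature compares the last step with the first, so these step sizes largely restate how the classes were chosen. A further 53 downward genes and 22 upward genes had no slope call. The turning point of the fitted curve lay within the range in all of these, and also in 266 of the 290, 33 of the 39 and 65 of the 69 genes called for both, and 97 of the 290 rose at every step. A fall that flattened was called in 0 genes by edgeR with all 12 libraries, where 21 falling genes had an upward curvature at an unadjusted p under 0.05. DESeq2 called 1 such gene, and edgeR called 1 with the replicate number as a block or without W5 replicate 2 and 2 without W6 replicate 1 or without all of W6. The last step was the largest in 58.6% of all rising genes and in 45.4% of all genes tested.

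The counts of curvature calls depended on single libraries. Without W7 replicate 1 they were 125 upward and 74 downward, and without W7 replicate 3 the upward count was 480. The upward count was 163, 188 and 186 without W5 replicates 1, 2 and 3, 198 without W6 replicate 3, 188 without W7 replicate 2 and 129 without W8 replicate 2. The downward count was 83 without W5 replicate 2, 250 without W6 replicate 1, 100 without W7 replicate 2 and 81 without W8 replicate 2. Curvature also depends on the scale: tested on the square root of CPM in place of a log scale, 579 genes curved upward and 142 downward. Without all of W5, 1 gene curved upward and 0 downward, and without W8 none was called. Without W6 the counts were 139 and 227, and without W7 they were 132 and 38.

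**Figure D2:**
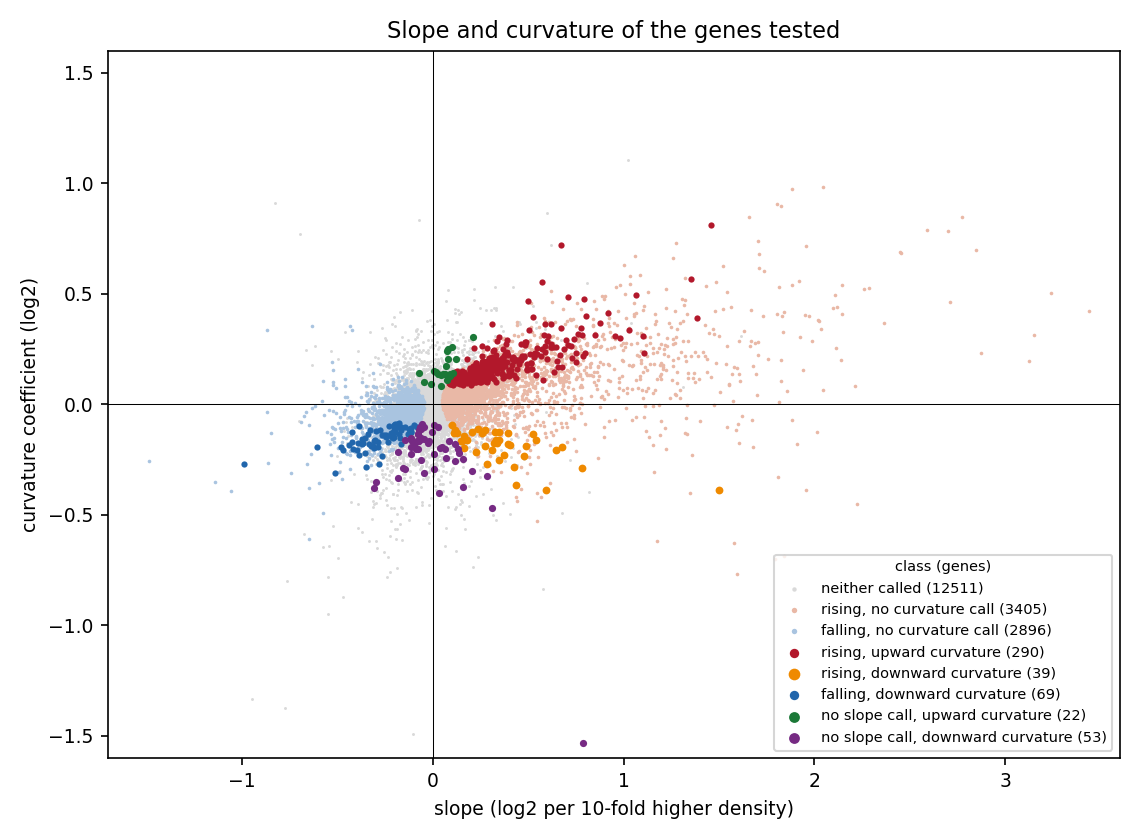
Curvature coefficient against slope for the genes tested, coloured by class, with the number of genes in each class. Genes called for both lie along the upper right (290 rising and steepening), the lower right (39 rising and flattening) and the lower left (69 falling and steepening), and 2 genes lie beyond the axes.

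**Figure D3:**
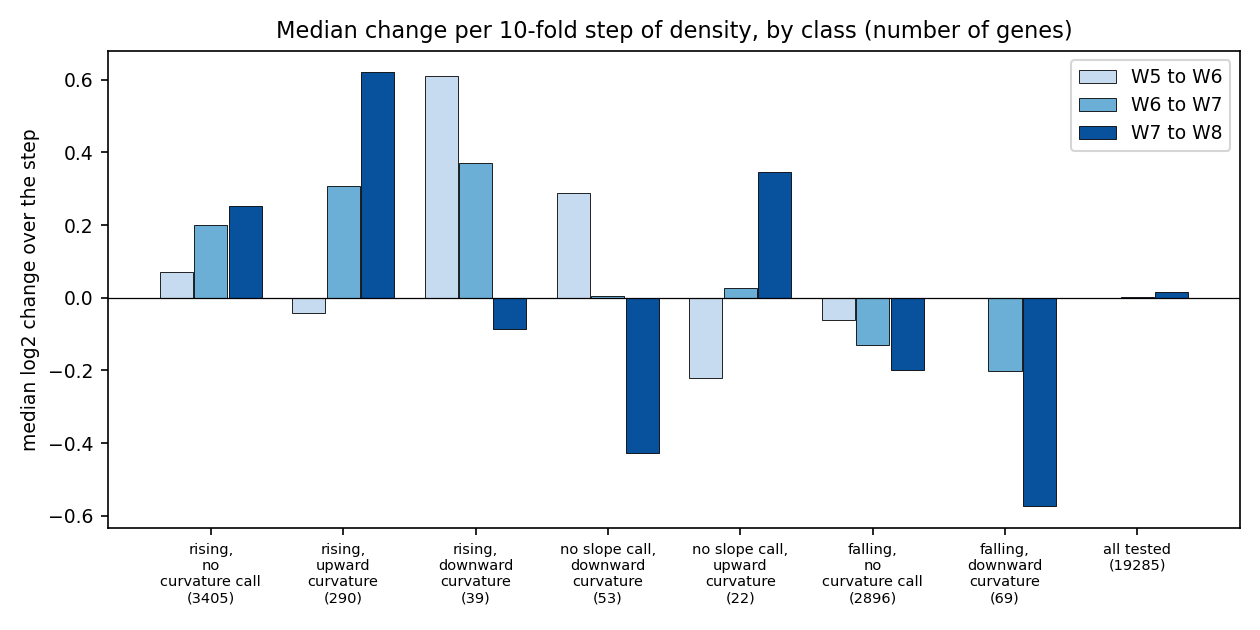
Median log2 change over each 10-fold step of density, by class, with the number of genes. The last step is the largest for rising genes with upward curvature (0.62) and for falling genes with downward curvature (-0.57), and the first step for rising genes with downward curvature (0.61). This order follows largely from how the classes were chosen.

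Genes with upward curvature are described first. CRK5 (AT4G23130), a cysteine-rich receptor kinase, had 9.02, 8.69 and 8.94 CPM in W5, 10.9, 8.98 and 7.11 in W6, 13.5, 16.7 and 19 in W7, and 38.4, 41.7 and 35.3 in W8. W5 and W6 overlapped, W7 lay above both and W8 above W7. Its curvature was 0.30 ± 0.05 (adjusted p = 0.00429) and its slope 0.74 ± 0.09 (adjusted p = 6.11e-05). CRK23 (AT4G23310) of the same family had the highest curvature among genes whose log2 CPM averaged 1 or more, 0.81 ± 0.16 (adjusted p = 0.0143), with 0.231 to 0.756 CPM in W5, then 0.141 to 0.445 in W6, 0.396 to 1.25 in W7 and finally 4.51 to 8.03 in W8, and it was not called without W5 replicate 1 (adjusted p = 0.0581). AT1G56120, a leucine-rich repeat receptor kinase, stayed at 2.97 to 5.2 CPM through W7 and reached 16.4 to 19.5 in W8, with a curvature of 0.48 ± 0.09 (adjusted p = 0.0135). HO3 (AT1G69720), a heme oxygenase, had 2.45 to 5.69 CPM through W7 and 15.8 to 20.9 in W8, with a curvature of 0.41 ± 0.07 (adjusted p = 0.00429). PR5 (AT1G75040), a thaumatin-like defence protein, had 45.2, 23.7 and 31.1 CPM in W5, 33.7, 14.8 and 21.4 in W6, 17.6, 25.8 and 33.8 in W7, and 117, 192 and 88 in W8. The 3 lower densities overlapped and W8 lay above them, the curvature was 0.72 ± 0.16 (adjusted p = 0.0485), and it was not called in 10 of the 12 fits that left out 1 library (adjusted p up to 0.111). The receptor kinases AT4G18250 and AT5G59680, the caldesmon-like AT4G25070 and the purple acid phosphatase AT1G13750 had curvatures of 0.57, 0.47, 0.50 and 0.49. In the same order, they were called in 5, 3, 10 and 4 of the 12 fits that left out 1 library.

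Other genes rose early and then flattened or turned down. BT2 (AT3G48360), a BTB-TAZ scaffold protein that is repressed by sugar, had 4.79, 3.42 and 4.26 CPM in W5, 21.5, 21.3 and 22.5 in W6, 68.8, 59.5 and 66.1 in W7, and 101, 103 and 142 in W8. The groups did not overlap at any step, and the log2 steps shrank from 2.37 through 1.57 to 0.82. Its slope was 1.5 ± 0.12 (adjusted p = 6.82e-06) and its curvature -0.39 ± 0.05 (adjusted p = 0.000584), but on the square root of CPM the curvature was 0.01 ± 0.13 (adjusted p = 0.982). AT2G20670, a DUF506 protein, had 112, 104 and 126 CPM in W5, 244, 272 and 248 in W6, 359, 339 and 345 in W7, and 286, 244 and 312 in W8. Every W7 library lay above every library of the other groups, and W6 and W8 overlapped. Its curvature was -0.37 ± 0.03 (adjusted p = 5.27e-06), its slope 0.43 ± 0.12 (adjusted p = 0.0149, and 0.0543 without W5 replicate 1), and the fitted curve peaked at a log10 density of 7.09. AT5G03615 rose from 1.2 to 1.86 CPM in W5 to 5.31 to 7.52 in W7 and had 4.82 to 6.5 in W8, with a curvature of -0.39 ± 0.08 (adjusted p = 0.0169) that was lost without W5 replicate 2 or W7 replicate 1 (adjusted p up to 0.0567).

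Among genes with a curvature but no slope call, OXS3 (AT5G56550), a chromatin-associated stress tolerance protein, had 9.83, 8.64 and 12.3 CPM in W5, 17.6, 21.2 and 20.3 in W6, 18.7, 18.5 and 18.2 in W7, and 10.7, 11.8 and 12.5 in W8. W6 and W7 lay above W5 and W8, which overlapped. The curvature was -0.40 ± 0.04 (adjusted p = 5.09e-05) and the slope 0.04 ± 0.13 (adjusted p = 0.863). Peaks of the same kind were found for TEM1 (AT1G25560), a repressor of flowering, at 91.3 to 113 CPM in W5, 166 to 178 in W7 and 139 to 145 in W8 (curvature -0.22 ± 0.03, adjusted p = 0.000133). The ubiquitin ligase RMA1 (AT4G03510), which sits in membranes, also peaked (curvature -0.25 ± 0.02, adjusted p = 5.09e-05). RMA1 shares exon bases with another gene and is uncertain for that reason, as are AT5G21940 and BT5 (AT4G37610), with curvatures of -0.37 and -0.47. Troughs were shallower. CML42 (AT4G20780), a calmodulin-like calcium sensor, had 7.95 to 9.89 CPM in W5, then 6.58 to 6.96 in W6, 6.35 to 7.64 in W7 and finally 10.3 to 10.5 in W8, with W6 and W7 below W5 and all of them below W8 (curvature 0.24 ± 0.04, adjusted p = 0.00373). AT4G02410, a lectin receptor kinase, AT5G11000 of the DUF868 family and AT3G52710 had curvatures of 0.13, 0.14 and 0.15. The curvatures of OXS3, TEM1, RMA1, AT5G21940, BT5 and the 4 trough genes stayed called with each library left out in turn.

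Among the receptors and early responses of pattern-triggered immunity, 20 of 24 genes tested had a called rise and 0 a fall, against 19.4% and 15.4% of all genes. Upward curvature was called in 3, against 1.62% of all genes. The median slope was 0.59, where all genes had -0.00361. FRK1 (AT2G19190), a receptor kinase used as a marker of this response, had 4.18, 5.59 and 6.54 CPM in W5, 12.7, 14.3 and 15.2 in W6, 21.2, 22.5 and 35.5 in W7, and 106, 142 and 83.7 in W8. The groups did not overlap at any step. Its slope was 1.44 ± 0.10 (adjusted p = 3.03e-06) and its curvature of 0.20 ± 0.11 was not called. FOX1 (AT1G26380), an oxidase that makes a cyanide-containing defence compound, had a slope of 1.32 ± 0.10 (adjusted p = 3.39e-06), and WRKY22 (AT4G01250), a transcription factor downstream of the immune MAP kinases, one of 0.56 ± 0.05 (adjusted p = 1.99e-07). The upward curvatures were those of the co-receptor BAK1 (AT4G33430, 0.11 ± 0.03, adjusted p = 0.0268), the NADPH oxidase RBOHD (AT5G47910, 0.14 ± 0.03, adjusted p = 0.0355) and the kinase MPK3 (0.11 ± 0.03, adjusted p = 0.0458). These calls were weak: leaving out 1 library gave between 0 and 7 of them, with 0 without W5 replicate 3, W7 replicate 1 or W8 replicate 2, 1 without W5 replicate 1, W6 replicates 1 or 2 or W8 replicate 1, and 7 without W7 replicate 3. The receptor FLS2 had a slope of -0.04 that was not called.

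Salicylic acid genes had a median slope of 0.69, with 22 of 24 called as rising and 1 as falling, against 19.4% and 15.4% of all genes. EDS1 (AT3G48090), which joins receptor signals to salicylic acid, had 17.6 to 22.9 CPM in W5, then 17.9 to 20.5 in W6, 20.9 to 27.3 in W7 and finally 33.2 to 42.1 in W8, with a slope of 0.30 ± 0.06 (adjusted p = 0.00115) and a curvature of 0.19 ± 0.04 (adjusted p = 0.0202). NPR1 (AT1G64280), a salicylic acid receptor that shares exon bases with another gene, had a curvature of 0.14 ± 0.03 (adjusted p = 0.00942), and the receptors NPR3 (AT5G45110) and NPR4 (AT4G19660) had slopes of 0.50 ± 0.05 and 0.40 ± 0.04 (adjusted p = 3.91e-06 and 2.3e-06). ICS1 (AT1G74710), the first enzyme of salicylic acid synthesis, had a slope of 0.43 ± 0.09 (adjusted p = 0.00311), and over W5 to W7 it was not called (adjusted p = 0.341). EPS1, a later synthesis gene, fell with a slope of -0.32 ± 0.06 (adjusted p = 0.000262). PR2 (AT3G57260), a secreted glucanase, had 16.1 to 25.9 CPM in W5 and 177 to 311 in W8, with a slope of 1.26 ± 0.24 (adjusted p = 0.00215). The list held 3 upward curvatures, against 1.62% of all genes. These became 8 without W7 replicate 3 and 1 when W5 replicate 2, W7 replicate 1, W7 replicate 2 or W8 replicate 2 was left out.

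All 6 genes tested of N-hydroxypipecolic acid and systemic acquired resistance had a called rise and none a called curvature, against 19.4% and 2.45% of all genes. FMO1 (AT1G19250), which makes N-hydroxypipecolic acid, had 0.139 to 0.213 CPM in W5, then 0 to 2.87 in W6, 0.148 to 8.07 in W7 and finally 8.37 to 18.9 in W8, with a slope of 1.91 ± 0.37 (adjusted p = 0.00226), and its middle groups overlapped with those beside them. ALD1 (AT2G13810), an earlier enzyme of the pathway, rested on 1 read over the W5 libraries and UGT76B1 (AT3G11340), which attaches sugar to the product, on 2, and their slopes were 1.96 ± 0.35 and 1.84 ± 0.32. The lipid-transfer gene AZI1 (AT4G12470) was abundant at all densities, from 92.9 to 120 CPM in W5 to 375 to 505 in W8, with a slope of 0.67 ± 0.05 (adjusted p = 2.67e-07). Its reads may be shared with the near-identical EARLI1 (AT4G12480), whose slope was 0.99 ± 0.11.

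In camalexin and tryptophan synthesis 11 of 12 genes rose and 4 curved upward, against 19.4% and 1.62% of all genes. The median slope was 0.44. The tryptophan enzymes had their highest means in W8, but the rise was not confined to the last step. TSA1 (AT3G54640), the tryptophan synthase alpha subunit, had 85.1, 76.4 and 113 CPM in W5, 90.8, 76.8 and 78 in W6, 95.8, 94.3 and 119 in W7, and 213, 227 and 176 in W8, with a curvature of 0.29 ± 0.05 (adjusted p = 0.0144). ASA1 (AT5G05730), the first enzyme of the pathway, which shares exon bases with another gene, had means of 76.02 CPM in W6, 105.8 in W7 and 164.5 in W8. Its curvature was 0.19 ± 0.04 (adjusted p = 0.0103), and those of IGPS and TSB1 were 0.21 and 0.14 (adjusted p = 0.042 and 0.0444). These 4 calls became 7 without W7 replicate 3. They were 2 when a single library was left out that was W5 replicate 1 or 3, W6 replicate 2 or 3, W7 replicate 1 or 2, or W8 replicate 1 or 2. The camalexin enzymes themselves were steeper. PAD3 (AT3G26830), which makes camalexin, had 1.06 to 3.09 CPM in W5, then 0.799 to 2.26 in W6, 2.87 to 24.7 in W7 and finally 28.4 to 56.4 in W8, with a slope of 1.69 ± 0.26 (adjusted p = 0.000572) and no called curvature (0.28 ± 0.31).

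Of the 9 indole glucosinolate genes tested, 5 rose, 1 fell and 3 curved upward, against 19.4%, 15.4% and 1.62% of all genes. MYB51 (AT1G18570), a regulator of the pathway, had 16.7 to 22.4 CPM in W5, then 18.5 to 20.5 in W6, 25.6 to 40.4 in W7 and finally 63.5 to 77.6 in W8, with a slope of 0.63 ± 0.08 (adjusted p = 0.000159) and a curvature of 0.26 ± 0.05 (adjusted p = 0.0254) that was called in 5 of 12 fits without 1 library. The member that fell was MYB34, another regulator, described above. CYP83B1 (AT4G31500), an enzyme of the core pathway, and the transporter PEN3 (AT1G59870) had curvatures of 0.21 ± 0.04 and 0.18 ± 0.04 (adjusted p = 0.00647 and 0.0153), and only 1 of these 3 curvatures was called without W8 replicate 2. Aliphatic glucosinolate genes, which make a related class of compounds from methionine, went down: 11 of 16 fell, none rose, and the median slope was -0.15. MYB28 (AT5G61420), a regulator of these genes, fell from 68.8 to 74.7 CPM in W5 to 37.7 to 53.9 in W8 with a slope of -0.24 ± 0.04 (adjusted p = 7.64e-05).

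Among cysteine-rich and wall-associated receptor kinases, 16 of 17 rose and 3 curved upward, against 19.4% and 1.62% of all genes. The upward count became 7 without W7 replicate 3, and the median slope was 0.76. CRK20 (AT4G23280) rose without overlap between neighbouring groups, from 0.504 to 1.06 CPM in W5 through 1.21 to 2.12 and 3.11 to 4.5 to 9.14 to 10.8 in W8. Its slope was 1.2 ± 0.07 (adjusted p = 6.24e-09). Its curvature of 0.11 ± 0.09 was not called but ran from 0.0738 to 0.169 with each library left out in turn, so a straight line was not shown. Several genes of the family lie in 1 cluster and resemble each other, so reads may be split between them. Glutathione transferases, which detoxify reactive compounds, rose in 8 of 10, against 19.4% of all genes, and had a median slope of 0.77. Of 2 upward curvature calls, 0 were left when replicate 2 or 3 of W6 or replicate 1 or 2 of W7 or W8 was left out. When any single W5 library was left out, 1 was left. GSTF7 (AT1G02920) had a curvature of 0.37 ± 0.07 (adjusted p = 0.0338), and its reads may be shared with its near-identical neighbour GSTF6. Genes for protein folding in the endoplasmic reticulum rose in 10 of 12, against 19.4% of all genes. Their median slope was 0.17, with BIP3 (AT1G09080), a stress-induced chaperone, at 1.39 ± 0.15 (adjusted p = 3.09e-05). None of this list was called for curvature, although 5 were without W7 replicate 3.

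Promoters of 4 of these genes are shown because they differ in shape and in the W-box, the sequence bound by WRKY factors, the transcription factors that follow pattern-triggered immunity. The W-box was searched as TTGACC, and in its other form as TTGACT, on both strands in the 250 bases before each annotated start, and matches are in capitals. The sequences were read 5′ to 3′ on the gene's strand from RefSeq, build TAIR10.1. FRK1 rose over the whole range, CRK5 rose late, LUP5 was among the steepest rises, and AT2G20670 peaked at W7.
FRK1 (AT2G19190, chr2:8329945-8330194, minus strand): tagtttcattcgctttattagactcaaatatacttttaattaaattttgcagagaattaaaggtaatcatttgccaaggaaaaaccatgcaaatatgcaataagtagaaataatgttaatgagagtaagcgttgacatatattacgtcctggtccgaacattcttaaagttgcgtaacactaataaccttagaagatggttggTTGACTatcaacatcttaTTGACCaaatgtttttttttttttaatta
CRK5 (AT4G23130, chr4:12120221-12120470, minus strand): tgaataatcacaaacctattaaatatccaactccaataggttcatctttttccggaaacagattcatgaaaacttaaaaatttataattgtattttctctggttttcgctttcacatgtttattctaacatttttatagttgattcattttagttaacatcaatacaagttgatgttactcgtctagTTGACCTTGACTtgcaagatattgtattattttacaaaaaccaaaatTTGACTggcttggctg
LUP5 (AT1G66960, chr1:24992044-24992293, minus strand): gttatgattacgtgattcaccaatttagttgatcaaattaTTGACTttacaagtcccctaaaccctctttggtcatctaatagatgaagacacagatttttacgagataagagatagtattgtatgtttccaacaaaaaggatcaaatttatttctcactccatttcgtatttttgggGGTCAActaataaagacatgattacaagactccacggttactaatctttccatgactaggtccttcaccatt
AT2G20670 (chr2:8913748-8913997, minus strand): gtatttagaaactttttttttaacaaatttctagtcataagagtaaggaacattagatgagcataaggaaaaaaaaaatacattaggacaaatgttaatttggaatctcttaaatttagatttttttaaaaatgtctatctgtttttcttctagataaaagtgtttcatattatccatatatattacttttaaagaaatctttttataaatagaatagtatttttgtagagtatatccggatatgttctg
FRK1 had matches that began 47 and 29 bases before the start. CRK5 had 3, a pair side by side at 63 and 57 bases and 1 at 16 bases. LUP5 had 2, at 210 and 72 bases, the second read on the opposite strand. AT2G20670 and BT2 had none in this window, which says only that these letters are absent from it. The 4 genes shown do not stand for their shapes. Of the 10 steepest rises, LUP5, AT4G11170, AT1G13520, AT1G26410 and AOX1D had matches. The others, PR1, DLO1, WRKY38, AT3G28510 and PCR1, had none. Of the peaks without a slope call, OXS3 had 1 match and RMA1, TEM1 and AT5G21940 had none.

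Over all genes tested, 28% of 19163 promoters held a W-box match. The share was 36.8% among rising genes, 44.6% among genes with upward curvature, 29.6% among those with downward curvature and 23.8% among falling genes. Among the 266 genes that rose by at least a doubling per 10-fold density it was 55.3%. TGACG, the core bound by TGA factors that work with NPR1, was found in 19.3% of all promoters and in 29.3% of those 266, but in 19.9% of the genes with upward curvature. Other motifs were searched in the same way. The G-box CACGTG was found in 7.32% of all promoters, 8.81% of the downward ones and 6.09% of the upward ones. The I-box GATAAG was found in 12.5% of all promoters and 18.2% of the downward ones. The evening element of clock genes, AAAATATCT, was found in 2.54% of all and 5.13% of the upward ones. The motif ACTCAT of bZIP factors was found in 11.9% of all promoters and 11.3% of the downward ones. The GCC box GCCGCC was found in 2% of all and 0.962% of the upward ones. No W-box match contains TGACG. A match is a description of letters and not a bound site.

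The median change of low sugar and low energy genes was largest from W5 to W6, which did not hold for every member. Of 22 tested, 18 rose, 1 fell and 4 curved downward, against 19.4%, 15.4% and 0.835% of all genes. The median log2 changes over the 3 steps were 0.48, 0.38 and 0.16. KMD1 (AT1G80440), a kelch-repeat F-box protein known to target type-B cytokinin regulators for breakdown, had 136, 113 and 134 CPM in W5, 210, 249 and 249 in W6, 309, 306 and 264 in W7, and 276, 278 and 301 in W8. W6 lay above W5, W7 above W6, and W8 overlapped with W7. Its curvature was -0.23 ± 0.03 (adjusted p = 0.000531) and its slope 0.37 ± 0.07 (adjusted p = 0.00185). TPS8 (AT1G70290), a trehalose-phosphate synthase-like protein, had 122 to 140 CPM in W5, then 183 to 227 in W6, 338 to 341 in W7 and finally 366 to 384 in W8, with a curvature of -0.13 ± 0.03 (adjusted p = 0.0241) that was lost without 5 of the libraries. The other downward members were BT2 and the transcription factor BZIP1 (-0.18 ± 0.03, adjusted p = 0.00294). KMD2 (AT1G15670), a close relative of KMD1, rose from 14.7 to 16.6 CPM in W5 to 64 to 69.8 in W8, with a slope of 0.69 ± 0.04 (adjusted p = 3.52e-09). Its curvature of 0.02 ± 0.04 was not called. TPS11 (AT2G18700) and DIN10 (AT5G20250), a raffinose synthase-like gene that rises in the dark, had slopes of 0.74 ± 0.04 and 0.58 ± 0.04 (adjusted p = 6.74e-09 and 1.21e-07) and no called curvature. The member that fell was the transcription factor BZIP11, with a slope of -0.14 ± 0.03 (adjusted p = 0.00326).

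**Figure D4:**
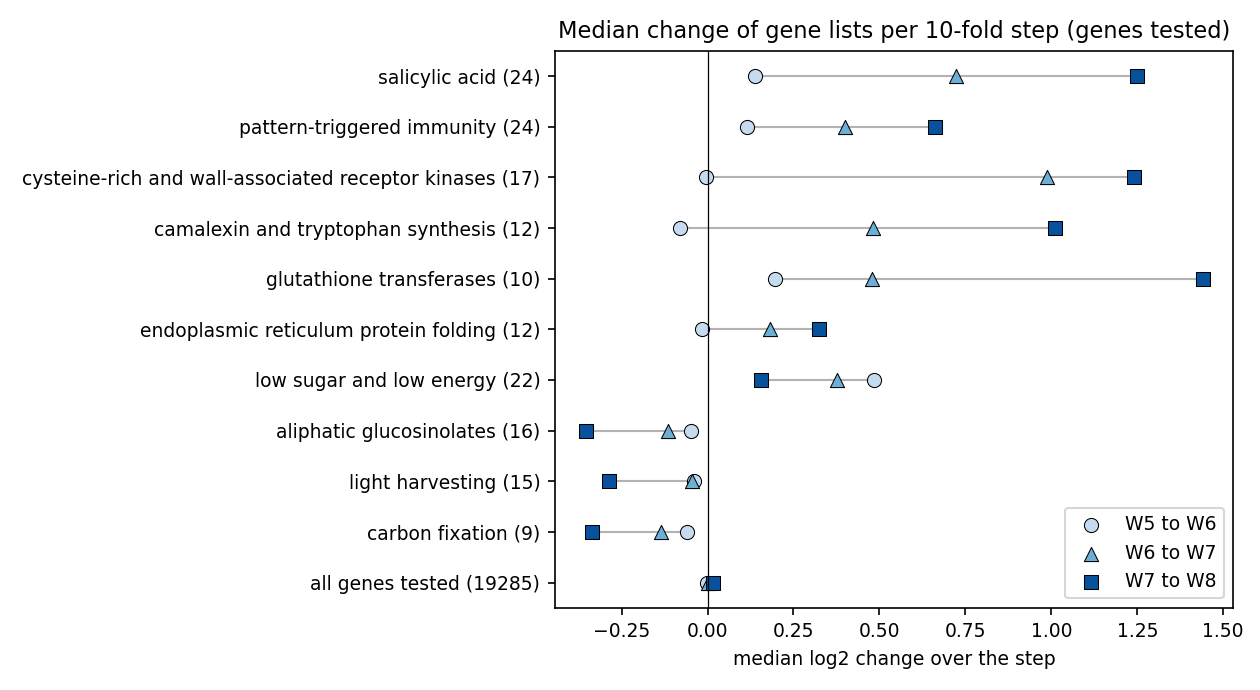
Median log2 change over each 10-fold step for 10 gene lists and for all genes tested, with the number of genes tested. The immune lists have their largest median change from W7 to W8 (1.25 for salicylic acid), the low sugar list from W5 to W6 (0.48), and the photosynthesis lists fall mainly from W7 to W8 (-0.29 and -0.34).

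Fits that left out the highest or the lowest density, added after seeing the data, gave list counts of their own. Over W5 to W7, 17 of 22 low sugar genes had a called rise, against 5.46% of all genes, compared with 8 of 23 for pattern-triggered immunity, 8 of 23 for salicylic acid, 5 of 16 for the receptor kinases and 1 of 12 for camalexin and tryptophan. Over W6 to W8 the counts were 14 of 22, 18 of 24, 21 of 24, 16 of 17 and 11 of 12, against 15.2% of all genes. AT2G20670 had a slope of 0.06 over W6 to W8 that was not called (adjusted p = 0.659), and KMD1 one of 0.12 (adjusted p = 0.0851). The difference between lists was not tested.

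**Figure D5:**
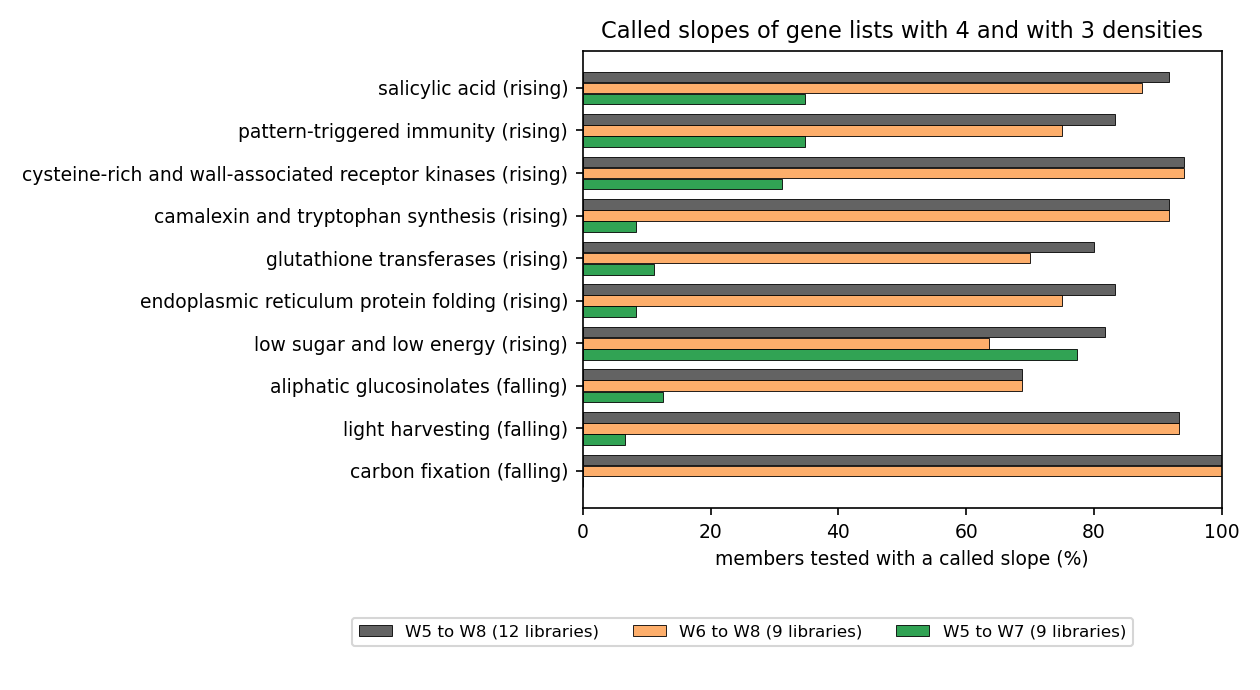
Percent of tested members with a called slope in the listed direction, with all 4 densities, without W5 and without W8. Without W8 the share is 77.3% in the low sugar list and 0 to 34.8% in the other 9 lists.

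Photosynthesis genes fell by small amounts, mostly in the last step. In bulk shoots, fewer cells of a type and less RNA per cell cannot be told apart. Of 15 light-harvesting genes 14 fell, against 15.4% of all genes, with a median slope of -0.12. Of 9 carbon fixation genes all 9 fell, with a median slope of -0.18. All 24 had a negative curvature coefficient, though none was called, where 9505 of the 19285 genes tested had a negative one. The 24 genes were measured in the same 12 libraries, so their signs are not independent. In both lists the largest of the 3 median changes was that from W7 to W8. LHCB2.1 (AT2G05100), a chlorophyll-binding antenna protein, had 5000, 4510 and 4680 CPM in W5, 4880, 4270 and 4420 in W6, 4620, 4280 and 4250 in W7, and 3460, 3150 and 3530 in W8. W5, W6 and W7 overlapped and W8 lay below them. Its slope was -0.15 ± 0.03 (adjusted p = 0.00107), and over W5 to W7 it was -0.06 and not called (adjusted p = 0.365). RBCS3B (AT5G38410), a small subunit of Rubisco with near-identical copies, fell from 6180 to 7250 CPM in W5 to 3970 to 4640 in W8 with a slope of -0.20 ± 0.04 (adjusted p = 0.000299). PSBS (AT1G44575), which protects photosystem II from excess light, had a slope of -0.24 ± 0.03 (adjusted p = 1.91e-05). Without W8, 1 of 15 light-harvesting and 0 of 9 carbon fixation genes fell, against 2.72% of all genes.

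Of 12 clock genes 5 rose and 3 fell, against 19.4% and 15.4% of all genes, and 4 had no called slope. The morning gene CCA1 (AT2G46830) had 60.8, 58.9 and 68.2 CPM in W5, 51.2, 61.4 and 56.3 in W6, 54.3, 43 and 45.7 in W7, and 26, 24.7 and 28 in W8, with a slope of -0.39 ± 0.06 (adjusted p = 0.000244) and a curvature of -0.18 ± 0.04 (adjusted p = 0.0135). PRR9 (AT2G46790), which peaks after it, fell by 0.39 per 10-fold density (SE 0.03, adjusted p = 7.02e-08), and LHY by 0.19. The evening gene TOC1 (AT5G61380) rose from 27.3 to 28.8 CPM in W5 to 47.2 to 53 in W8, with a slope of 0.27 ± 0.05 (adjusted p = 0.000502) and a curvature of 0.16 ± 0.03 (adjusted p = 0.0153). LUX (AT3G46640), an evening gene that shares exon bases with another gene, had a slope of 0.34 ± 0.04 (adjusted p = 7.61e-06), and PRR5, ELF3 and ELF4 also rose. The labels used here give no hour of harvest for the single libraries.

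Of 9 senescence genes tested, 8 rose and 1 fell, against 19.4% and 15.4% of all genes. The member that fell was RCCR (AT4G37000), a chlorophyll breakdown gene. The senescence marker SAG12 had 6 reads over the 12 libraries and was not tested. WRKY6 (AT1G62300), a factor of senescence and defence, had a slope of 0.83 ± 0.07 (adjusted p = 3.56e-06). NAP (AT1G69490), a NAC factor that promotes leaf senescence, flattened at the top, with 48.3 to 52.9 CPM in W5, then 66.5 to 75.9 in W6, 85.8 to 90.5 in W7 and finally 76.9 to 93.5 in W8, and a curvature of -0.13 ± 0.03 (adjusted p = 0.0135). Its slope was 0.26 ± 0.04 (adjusted p = 9.37e-05). The chlorophyll breakdown enzyme PAO (AT3G44880) rose by 0.11 ± 0.02 per 10-fold density (adjusted p = 0.00042).

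Of 17 cytokinin response genes tested, 3 rose, 4 fell and 2 curved upward, against 19.4%, 15.4% and 1.62% of all genes. The falling count was 1 without W8 replicate 1, while the rising count was 1 without W5 replicate 1, W6 replicate 3 or W8 replicates 2 or 3. ARR5 (AT3G48100), a type-A response regulator that dampens the response, had 9.63 to 10.6 CPM in W5, then 8.22 to 11.2 in W6, 10.1 to 11.1 in W7 and finally 15.5 to 16.1 in W8, with a slope of 0.22 ± 0.05 (adjusted p = 0.00178). ARR6 (AT5G62920), of the same type and with exon bases shared with another gene, had its lowest levels in W6 (10.5 to 14.6 CPM) and a curvature of 0.26 ± 0.06 (adjusted p = 0.0268). The 2 curvatures were both lost without W5 replicate 1 or W8 replicate 2, 1 was called when replicate 2 or 3 of W5, replicate 2 or 3 of W6, or replicate 1 or 2 of W7 was left out, and 4 without W6 replicate 1.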

How the data were processed

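RNA-seq counts of reads per gene were deposited by the authors in 1 table, as raw whole numbers with no normalization. The build was TAIR10 and the tools included featureCounts 1.22.2 and cutadapt 1.9.1, per the submitters' processing notes. No source used here gives the aligner, annotation release or strand setting, so reads of genes that overlap, on either strand, cannot be told apart. A gene is called uncertain where less than 95% of its exon sequence overlaps no other gene, or where a near-identical copy exists. Of 32833 genes, 32548 matched RefSeq TAIR10.1, which gave symbols and promoters.

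The 12 inoculated libraries were fitted in R 4.3.3 with edgeR 4.0.16. filterByExpr (minimum count 10, minimum total 15) kept 19285 genes and removed 13548. After TMM scaling, glmQLFit (robust=TRUE) and glmQLFTest tested the slope in a model with log10 density and the curvature in a model with a quadratic contrast added. SE is the estimate divided by the square root of F. Counts were simulated from these libraries with 200 genes changed for each test and the others flat. Slopes of 0.5 and 1 were called in 89.9% and 100% of the changed genes, and curvatures of 0.25 and 0.5 in 64% and 93%. Alternatives used DESeq2 1.42.0, limma 3.58.1, other scaling and filters, and fits without single libraries or densities. No pair of libraries within a group agreed within sampling noise. Deviations of same-numbered libraries of different groups correlated by -0.159 to 0.12, and those of differently numbered libraries by -0.226 to 0.184.

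Genes named were the 10 steepest rises and falls whose log2 CPM averaged 1 or more and whose W5 and W8 did not overlap, up to 8 curvatures per sign, up to 4 peaks and troughs, up to 4 by slope and 2 by curvature from each of 26 gene lists, and 10 genes named outright. Not all of these are printed. EPS1, MPK3, IGPS, TSB1, BZIP1, BZIP11, FLS2, LHY, ELF3, ELF4, SAG12 and, in the closing observations, AT3G49340, AT3G09450 and AT3G43850 were named outside this rule after their values were seen. The members and lists were chosen with earlier results of these data known, and the fits of lists without W5 or W8 were added after seeing the data.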

Additional observations from a re-analysis of the deposited data

How the results depend on the processing

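Both slope counts stayed within 1.5 times (3734 rising, 2965 falling) under DESeq2, limma voom, size factors of DESeq2 type, no filter, robust=FALSE and fits without W5, W6 or W7. Leaving out 1 library gave 3112 to 3831 and 2334 to 3297, and leaving out W8 gave 1040 and 519. Curvature counts (312 upward, 161 downward) depended more on the setting. They were 519 and 360 with DESeq2, 579 upward on the square root of CPM, 171 upward with the quadratic and cubic contrasts tested jointly, 139 and 227 without W6, 132 and 38 without W7, 1 and 0 without W5, and 0 and 0 without W8. Leaving out 1 library gave 125 to 480 and 74 to 250. The cause was not tested.

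Of 70 slopes and 49 curvatures of single genes printed, DESeq2 size factors changed the call of 1, the curvature of MPK3 (adjusted p = 0.0526). Of the curvatures, 3 were lost with limma voom, 3 with no filter and 4 with robust=FALSE. On the square root of CPM 3 were lost with the same sign, and that of BT2 with the sign changed. Without 1 library 1 to 16 were lost, the most without W8 replicate 2. Of the slopes, 10 were lost without W5. Without W8, 23 were lost with the same sign, that of PR5 was lost with the sign changed, and 39 of the 70 kept their status. The rest had no fit without W8 because the filter removed the gene. With the replicate number as a block, 1 slope and 7 curvatures were no longer called. With that block the counts were 3657 rising, 2894 falling, 302 upward and 210 downward. Same-numbered libraries correlated by -0.159 to 0.12 in their deviations and differently numbered ones by -0.226 to 0.184, and 3 of 12 libraries correlated best with their own number. Replicate 3 had the smallest total and replicate 1 the lowest TMM factor at each density. Whether same-numbered libraries shared a batch was not tested. The slope of OXS3, not called with all libraries, ran from -0.0538 to 0.1077 with 1 library left out and was called as a fall of -0.3846 without W5 (adjusted p = 0.00049). Curvatures that were not called also changed sign, from -0.01575 to 0.04981 for KMD2 and from -0.04175 to 0.008092 for AT2G44940 with 1 library left out, and to 0.06423 for AT2G44940 on the square root of CPM. The slope of PR5 became -0.19 (adjusted p = 0.627) without W8, and the curvature of BT2 became 0.0087 on the square root of CPM. DESeq2 gave no adjusted p for the slope of AT1G13520 and the curvatures of CRK23, AT5G59680 and AT3G43850. With 3 libraries per density, simulated curvatures of 0.25 were called in 64% of genes. The simulation changed 200 genes for each test and left the others flat, whereas 6699 genes had a called slope here. The median of the called upward curvatures was 0.16, and curvatures that small were not simulated.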

Other observations

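Of 13 jasmonic acid genes only JAZ1, a repressor of the response, had a called slope, against 34.7% of all genes. That slope (0.37 ± 0.11, edgeR adjusted p = 0.0242) was lost without W5 replicate 1, W5 replicate 2 or W8 replicate 2. No cell cycle gene of 9 and no iron gene of 11 had a called slope or curvature by edgeR with all libraries. Over all genes the shares were 34.7% and 2.45%. Leaving out single libraries gave up to 2 falls in each of these lists. Phosphate starvation genes fell in 5 of 8, and in 2 without W5 replicate 3, where 15.4% of all genes fell. Flavonoid genes fell in 3 of 8, against the same share, among them the early enzyme CHI (-0.19 ± 0.04, adjusted p = 0.000771). In auxin response, 3 of 13 rose, 1 fell and 3 curved downward, against 19.4%, 15.4% and 0.835% of all genes. The downward calls were 0 without W5 replicate 3 or W7 replicate 1, and 1 without W5 replicate 1 or 2, W6 replicate 2 or 3, W7 replicate 2 or W8 replicate 2, and the falls were 2 without W5 replicate 2 or W7 replicate 1 or 2. IAA17, a repressor of auxin response, fell from 20.8 to 22.3 CPM in W5 to 8.36 to 12 in W8 (slope -0.31 ± 0.05, adjusted p = 0.000452), and its curvature of -0.16 ± 0.04 was called in 5 of 12 fits without 1 library.

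Of 19 expansin and xyloglucan endotransglucosylase genes, 4 rose and 4 fell, near the 19.4% and 15.4% of all genes. XTH24 rose from 85.1 to 123 CPM in W5 to 222 to 262 in W8 (slope 0.43 ± 0.06, adjusted p = 0.000129), while EXPA5, a leaf expansin, fell (-0.15 ± 0.02, adjusted p = 0.000128) and XTH31 fell as described above.

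The extreme slopes of the whole table belonged to genes with a low average level. AT3G49340 had a slope of 3.44 ± 0.24 and AT3G09450 one of -1.49 ± 0.13. The downward curvature of AT3G43850, -1.53 ± 0.29 (adjusted p = 0.00942), was the lowest among the called ones and also came from a low average level.

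The mock libraries, which no fit used, differed from each other for some of the steepest genes. AOX1D had 0.281, 0.257 and 102 CPM in mock replicates 1, 2 and 3, AT4G11170 had 0, 0 and 23.2, and AT1G13520 had 0.0562, 0 and 19.4. These are the genes for which W8 replicate 2 stood apart from the other W8 libraries. BT2 had 2.59, 5.09 and 5.38 CPM in mock, around its W5 level, and AT2G20670 had 40, 36.7 and 38.4, below all of its inoculated libraries. OXS3 had 3.09, 2.36 and 6.02 CPM in mock, also below every inoculated library.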
